A study of Homo sapiens with 4 samples.

Results

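Keratins, cadherins, EPCAM and vimentin are the genes most often read to place a carcinoma cell between an epithelial and a mesenchymal state. The genes described here are KRT5, KRT7, KRT8, KRT10, KRT18, KRT19, CDH1, CDH2, EPCAM and VIM. They were chosen by symbol, and all 10 were found among the 16376 genes of the expression table. The samples were LASCPC-01 cells, a line labelled neuroendocrine prostate cancer (NEPC) and wild type, whose starting cells, human prostate epithelium, had been transformed with NMYC and with an activated form of AKT1. Both groups carry these transgenes. There were 2 libraries from PBS-treated control cells and 2 from cells treated with fluoxetine, an antidepressant that inhibits serotonin reuptake. Cells received 5 µM fluoxetine for 48 h, whereas the sample titles give day 3 and no dose, and those of the fluoxetine samples name the treatment as PP. The treatment field of the labels was used for grouping. All libraries came from 1 line, and nothing in the labels says that the replicates were separate cultures, so the p-values measure only the spread between these samples, which may be technical.

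Keratins form the intermediate filaments of epithelial cells, and each filament is built from pairs of a type I and a type II keratin. KRT8 and KRT18 pair in simple and luminal epithelium, whereas KRT5 marks basal cells of the prostate. CDH1 (E-cadherin) joins epithelial cells through catenins, and EPCAM is an adhesion molecule of the epithelial surface. VIM (vimentin) forms the filaments of mesenchymal cells, and CDH2 (N-cadherin) is the cadherin of neural and mesenchymal cells. In epithelial-mesenchymal transition (EMT), factors of the SNAI, ZEB and TWIST families lower CDH1 while VIM, CDH2 and FN1 rise, and the reverse change restores the epithelial state.

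Expression was given as FPKM, the fragments on a gene divided by its length and by the depth of its library, so levels can be compared between genes. The depth that the FPKM imply was between 32873603 and 34831389 reads. The FPKM of a library did not sum to the same value. The sum was 364705 and 355729 with PBS and 379048 and 365732 with fluoxetine. The library of fluoxetine replicate 1 stood apart in its relation to gene length. Across 12663 genes, which are not independent replicates, log2 gene length had a correlation of -0.285 there with how far each gene lay from its 4-library mean. In the other 3 libraries it was 0.0455 to 0.189. Of 9 neuroendocrine markers listed, 4 had a mean of at least 1 FPKM and the rest had less. NCAM1 (44.3 to 52.0 FPKM) and INSM1 (21.7 to 24.2 FPKM) were among these 4 and were present in every library. CHGA, a granule protein used as a neuroendocrine marker, had only 0 to 7 reads in any library. CHGB had 1 to 7 reads, NEUROD1 had 2 to 8 and FOXA2 had 0 to 2.

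VIM was the only member with an adjusted p under 0.05, and it was lower in fluoxetine. VIM had 5.36 and 5.52 FPKM with PBS, and with fluoxetine it had 3.32 and 2.86 FPKM. These values rest on 380 and 414 reads with PBS and on 249 and 215 reads with fluoxetine. Both fluoxetine libraries lay below both PBS libraries. The PBS mean was 5.44 ± 0.115 FPKM and the fluoxetine mean 3.09 ± 0.322 FPKM (SD, n = 2 each). The log2 fold change (log2FC), fluoxetine minus PBS on the log2(FPKM + 0.1) scale, was -0.80 for VIM (SE 0.12, 95% interval -1.06 to -0.54). The adjusted p was 0.0173 from limma, with Benjamini-Hochberg adjustment over all genes tested. The limma value was 0.426 without the filter on low values, 0.277 without the trend in eBayes and 0.0783 with quantile normalization. Of the 9 members tested, 1 had an adjusted p under 0.05. Over the table it was 0.237% of the genes tested, 0.213% lower in fluoxetine and 0.0237% higher. The members were chosen with earlier results of these data known, so these shares cannot test whether the members stand out. VIM stayed lower with any of the libraries left out, at log2FC values between -0.90 and -0.70, but each of these fits of 3 libraries took the adjusted p above 0.05. It was 0.259 without PBS replicate 1, 0.573 without PBS replicate 2, 0.0513 without fluoxetine replicate 1 and 0.136 without fluoxetine replicate 2. For 1 gene and groups of 2, the smallest two-sided p of an exact permutation is 0.33.

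The VIM gene lies on chromosome 10 of GRCh38, from 17228259 to 17237593 on the plus strand in GENCODE 29. The window below is shown because VIM is the only member with an adjusted p under 0.05. It holds the 250 bases before the RefSeq start site of VIM, at chr10:17227991-17228240 of GRCh38.p14, plus strand, 5′ to 3′. Capitals mark the match to GGGCGG, the GC box, and both strands were searched.

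VIM: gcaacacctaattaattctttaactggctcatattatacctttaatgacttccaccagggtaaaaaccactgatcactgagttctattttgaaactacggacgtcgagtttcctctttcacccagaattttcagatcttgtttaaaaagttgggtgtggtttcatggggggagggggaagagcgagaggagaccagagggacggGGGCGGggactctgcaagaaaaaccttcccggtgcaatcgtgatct

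The match begins 46 bases upstream of that start site, and 42.6% of the 35116 promoter windows of this length hold GGGCGG on either strand. Neither CACCTG, the E-box bound by SNAI and ZEB factors and held by 17.5% of the windows on either strand, nor TATAAA, held by 10.7%, occurs in these letters. The RefSeq start site used here lies 1037 bases upstream of the VIM start that carries CAGE support in GENCODE 29, so the window belongs to the upstream start. The antisense genes VIM-AS1 and AL133415.1 overlap VIM on the opposite strand. The library kit is named as stranded in the labels and as another kit in the methods, so reads of VIM and of these genes could not be told apart if the counting did not use strand.

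**Figure D1:**
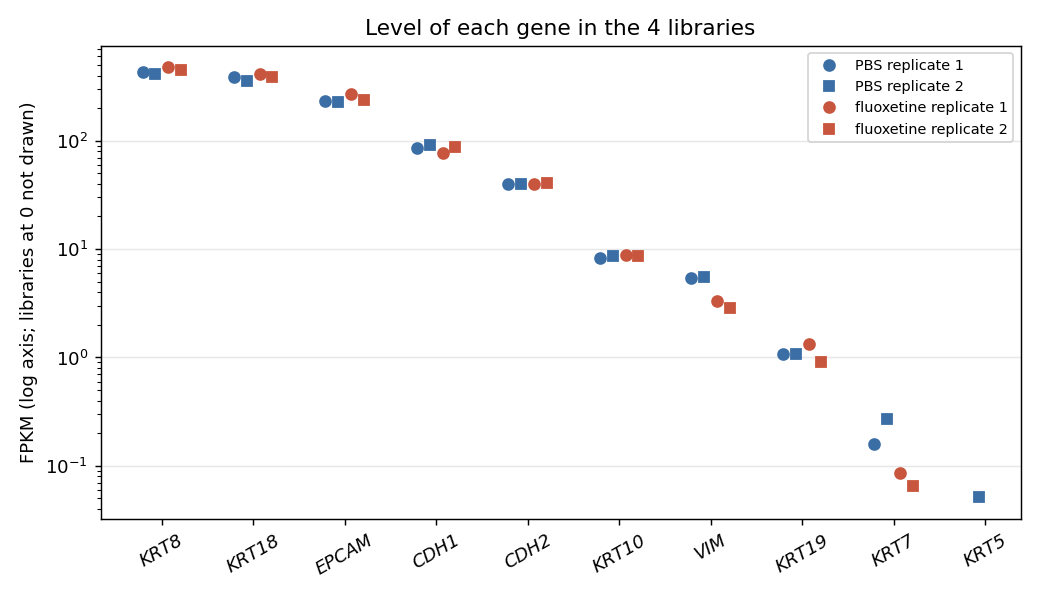
FPKM of the 10 genes (log axis) in each library, with circles and squares for replicates 1 and 2, blue for PBS and red for fluoxetine. KRT8, KRT18 and EPCAM lie at 228 FPKM or above in all 4 libraries, VIM lies between 2.86 and 5.52 FPKM with both fluoxetine libraries lowest, and KRT5 is drawn only for PBS replicate 2, at 0.0514 FPKM.

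In level, the members were ordered KRT8, KRT18, EPCAM, CDH1, CDH2, KRT10, VIM, KRT19, KRT7 and KRT5, in each of the 4 libraries. The ranges of neighbours in this order were apart except for KRT8 and KRT18, which overlapped between libraries although KRT8 was the higher of the pair within every library. KRT8 ranked 99 and KRT18 ranked 106 by mean FPKM among the 16376 genes. EPCAM ranked 184, CDH1 ranked 716 and CDH2 ranked 1711. VIM ranked 8114, at a mean of 4.26 FPKM over the 4 libraries. The 4 highest members were thus epithelial genes, and CDH2 was expressed beside CDH1 in the same cultures. A bulk library cannot tell cells that carry both cadherins from a mixture of cells.

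KRT8, the type II keratin of simple epithelium, had 434 and 412 FPKM with PBS and 475 and 446 FPKM with fluoxetine. Both fluoxetine libraries were above both PBS libraries. The log2FC of KRT8 was 0.12 (SE 0.082, 95% interval -0.056 to 0.30, adjusted p = 0.653 from limma). KRT18, its type I partner, had 388 and 359 FPKM with PBS and 412 and 386 FPKM with fluoxetine. For KRT18 the groups overlapped, since PBS replicate 1 was above fluoxetine replicate 2. The log2FC of KRT18 was 0.10 (SE 0.083, 95% interval -0.085 to 0.28, adjusted p = 0.731 from limma).

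The ratio of KRT8 to KRT18 varied little, at 1.12 and 1.15 with PBS and 1.15 and 1.16 with fluoxetine. KRT8 and KRT18 were each highest in fluoxetine replicate 1 and lowest in PBS replicate 2. These neighbours lie on chromosome 12, KRT8 from 52897187 to 52949954 on the minus strand and KRT18 from 52948871 to 52952901 on the plus strand. Their annotated 5′ ends overlap. Reads in that overlap could not be told apart if the counting did not use strand. The read numbers of both genes were high, from 28381 to 32893 for KRT8 and from 18680 to 21466 for KRT18. Counting alone would give a coefficient of variation of 0.593% for KRT8 in PBS, whereas the replicates had 3.80%. For KRT18 in PBS the corresponding values were 0.728% and 5.44%. GENCODE 29 names 50 pseudogenes of KRT8 and 68 of KRT18, none of which is in the table, so reads shared with these copies could have been lost or assigned to KRT8 and KRT18.

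The remaining keratins among the members were low. KRT10, a type I keratin of stratified epithelium, had 8.34 and 8.55 FPKM with PBS and 8.86 and 8.56 FPKM with fluoxetine. The fluoxetine libraries were the higher ones, by a log2FC of 0.044 (SE 0.090, adjusted p = 0.903 from limma). KRT19, a type I keratin of simple and ductal epithelium, had 1.07 and 1.08 FPKM with PBS and 1.34 and 0.909 FPKM with fluoxetine. The fluoxetine libraries lay on either side of the PBS libraries, and KRT19 rested on 44 to 65 reads. Its log2FC was 0.039 (95% interval -0.42 to 0.50), which became -0.22 without fluoxetine replicate 1 and 0.30 without fluoxetine replicate 2.

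KRT7, a type II keratin of simple glandular epithelium, had 0.160 and 0.270 FPKM with PBS and 0.0863 and 0.0647 FPKM with fluoxetine. These rest on 14 and 25 reads in PBS against 8 and 6 in fluoxetine, and the groups did not overlap. Its log2FC of -0.82 (SE 0.41, 95% interval -1.71 to 0.062) had an adjusted p of 0.593 from limma. At such a low level the pseudocount sets the size of the difference, which was -0.17 with a pseudocount of 1 and -1.36 with 0.01. KRT7 passed the filter on low values only through the PBS libraries. KRT5, the basal keratin, was at 0 in 3 libraries and at 0.0514 FPKM in PBS replicate 2, which is 2 reads or a multiple of 2. It was the 1 member not tested. At 2 reads it would lie under the 0.0771 FPKM that 3 reads give in that library, so no fold was computed.

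Over the whole keratin family, 22 genes were in the table, 10 of type I and 12 of type II. KRT8 made up 99.8% to 99.9% of the summed type II FPKM and KRT18 made up 97.4% to 97.6% of the type I sum. The type II sum was 435 and 412 FPKM with PBS and 476 and 447 FPKM with fluoxetine, and the type I sum was 398 and 369 against 422 and 395 FPKM. The ratio of the sums lay between 1.09 and 1.13 in the 4 libraries. Of the 16 keratins that are not members, only KRT2 and KRT80 had a mean of at least 0.1 FPKM, and neither passed the test. KRT80 had 0.369 and 0.461 FPKM with PBS and 0.263 and 0.381 FPKM with fluoxetine. KRT15 and KRT17, type I keratins found in basal cells, had 3 to 4 reads and 0 to 12 reads.

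**Figure D2:**
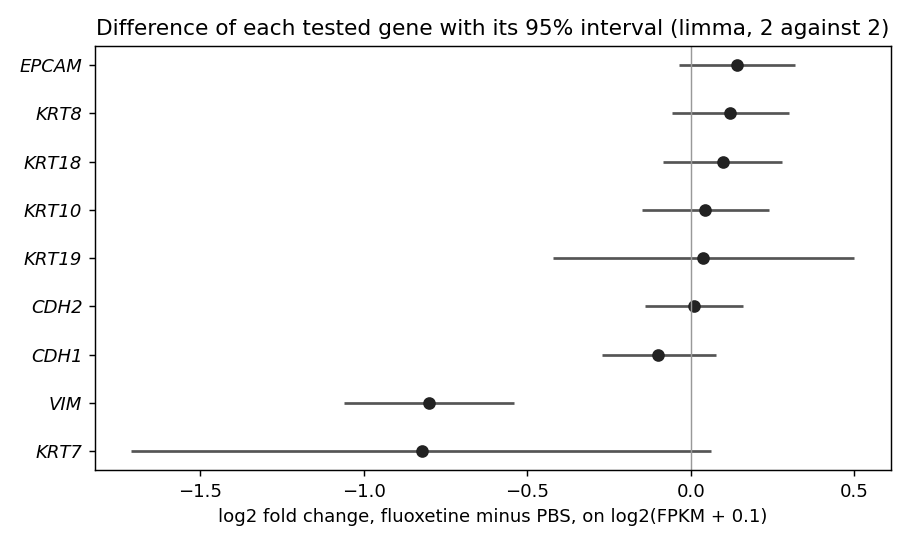
Log2FC (fluoxetine minus PBS, on log2(FPKM + 0.1)) of the 9 tested genes, with points for the limma estimate and lines for the 95% interval from 2 libraries a group. The interval of VIM, from -1.06 to -0.54, is the only one here that does not cross 0.

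EPCAM had 232 and 228 FPKM with PBS and 271 and 238 FPKM with fluoxetine. Both fluoxetine libraries were above both PBS libraries, with fluoxetine replicate 1 far above the rest. The PBS mean was 229.9 ± 3.13 FPKM and the fluoxetine mean 254 ± 22.9 FPKM (SD, n = 2 each). The log2FC of EPCAM was 0.14 (SE 0.083, 95% interval -0.036 to 0.32, adjusted p = 0.619 from limma). Without fluoxetine replicate 1 it was 0.051. EPCAM lies on chromosome 2 from 47345158 to 47387601.

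CDH1 had 85.7 and 91.3 FPKM with PBS and 77.9 and 88.0 FPKM with fluoxetine. The groups overlapped, and fluoxetine replicate 1 was the lowest library. Its log2FC was -0.10 (SE 0.080, 95% interval -0.27 to 0.078, adjusted p = 0.721 from limma), and -0.0077 without fluoxetine replicate 1. CDH2 had 39.6 and 40.3 FPKM with PBS and 39.9 and 40.6 FPKM with fluoxetine. The groups overlapped, and the coefficient of variation between replicates, 1.27% in PBS and 1.26% in fluoxetine, was close to the 1.27% and 1.25% of counting alone. The log2FC of CDH2 was 0.0097 (SE 0.070), and its 95% interval of -0.14 to 0.16 bounds the difference more closely than for any other member. CDH1 lies on chromosome 16 from 68737225 to 68835548 and CDH2 on chromosome 18 from 27950966 to 28177446.

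KRT8, KRT10, KRT18, KRT19 and EPCAM, whose lengths implied by the FPKM were 1390 to 2163 bases, were each highest in fluoxetine replicate 1, and CDH1, at 4811 bases, was lowest there. CDH2, at 4584 bases, was not lowest in that library, and KRT7 (2664 bases) and VIM (2157 bases) were not highest in it. Fluoxetine replicate 1 is the library in which longer genes had the lower FPKM relative to the other libraries. With the length trend removed from each library, the log2FC values were 0.093 for EPCAM, 0.085 for KRT8, 0.043 for KRT18 and -0.067 for CDH1, and none passed the test. The same step left VIM with -0.83 and an adjusted p of 0.0282 from limma. In fluoxetine, counting alone would give a coefficient of variation of 3.90% for KRT10 and 13.5% for KRT19, whereas the replicates had 2.42% and 27.3%. The part of gene length in the differences of the members was not tested.

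Of the 9 members tested, 5 had groups that did not overlap, 3 with fluoxetine above PBS and 2 with fluoxetine below. The 2 below were VIM and KRT7. KRT7 passed the filter on low values only through the PBS libraries, so its place in this count is no support for a fall. Over all genes tested, the share without overlap was 41.6%, made up of 16.7% above and 24.8% below. The median log2FC was 0.039 over the members and -0.021 over all genes tested. The signs of KRT10, KRT19 and CDH2 turned when values were rescaled to TPM, which divides each value by the sum over its library, whereas the other 6 kept theirs under every alternative in which they were tested. The size did not hold for KRT8, KRT18 and EPCAM. With quantile normalization the log2FC was 0.012 for KRT8 and for KRT18 (SE 0.049 and 0.051) and 0.056 for EPCAM (SE 0.057). With TPM rescaling it was 0.076 for KRT8, 0.047 for KRT18 and 0.10 for EPCAM. For CDH1 it lay between -0.18 and -0.0077 over the alternatives. Without PBS replicate 2 KRT18 had 0.040, and without fluoxetine replicate 1 it had 0.048.

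Ratios within a library that have VIM as the denominator restate the difference in VIM. The CDH1 to VIM ratio was 16.0 and 16.5 with PBS and 23.5 and 30.8 with fluoxetine. The KRT8 to VIM ratio was 81.0 and 74.5 with PBS and 143 and 156 with fluoxetine. In contrast, the CDH1 to CDH2 ratio was 2.16 and 2.26 with PBS and 1.95 and 2.17 with fluoxetine, with overlap between the groups. VIM made up 0.557% and 0.600% of the summed FPKM of cytoplasmic intermediate filaments with PBS and 0.323% and 0.296% with fluoxetine. Keratins made up 84.8% to 87.6% of that sum.

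Among the 12 other intermediate filament genes, none of the 9 tested had an adjusted p under 0.05. NEFH, the heavy neurofilament subunit, had 87.1 and 96.1 FPKM with PBS and 88.0 and 85.8 FPKM with fluoxetine. NES (nestin), a filament of progenitor cells, had 33.2 and 33.6 against 32.5 and 32.6 FPKM. The NES level was thus above that of VIM in every library. SYNM (synemin) had the lowest log2FC among those of at least 1 FPKM, at -0.25 (SE 0.12). The nuclear lamins LMNB1 and LMNB2, which had the highest levels of the list, had log2FC values of 0.030 and 0.0025, and LMNA had 0.053.

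The catenins link cadherins to actin, and the table held all 7 that were listed. None of the 5 tested passed. CTNNB1 (β-catenin) had 66.0 and 63.4 FPKM with PBS and 69.1 and 71.5 FPKM with fluoxetine, a log2FC of 0.12 (SE 0.070). JUP (plakoglobin), which also serves desmosomes, had the highest level, at 109 to 119 FPKM. CTNNA1 and CTNND1 had log2FC values of 0.036 and 0.074. CTNND2, a δ-catenin of neurons, had 3.86 and 3.24 FPKM with PBS and 2.87 and 2.82 FPKM with fluoxetine, a log2FC of -0.31 (SE 0.13, adjusted p = 0.554 from limma).

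Of 21 other cadherins, 18 were in the table and 8 were tested, 6 with a lower and 2 with a higher mean log2 value in fluoxetine, and none passed. Over all genes tested, about 56.5% had a lower mean log2 value in fluoxetine. CDH19 had 9.05 and 8.93 FPKM with PBS and 7.55 and 7.86 FPKM with fluoxetine, a log2FC of -0.22 (SE 0.091). CDH24 had 5.91 and 6.41 against 5.26 and 5.60 FPKM. CDH23 had the lowest log2FC among those of at least 1 FPKM, at -0.41 (SE 0.19, adjusted p = 0.579 from limma). CDH11, a cadherin of mesenchymal cells, had 1 to 2 reads in each library.

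Of the 24 tight junction and desmosome genes, 21 were tested, 14 lower and 7 higher by sign, and none had an adjusted p under 0.05. The share lower by sign over all genes tested was about 56.5%. CLDN7 and CLDN4, claudins of tight junctions, had 85.1 to 99.5 FPKM and 71.4 to 81.9 FPKM. DSP (desmoplakin), which anchors keratin filaments to desmosomes, had 58.7 and 60.8 FPKM with PBS and 45.6 and 52.4 FPKM with fluoxetine. The groups did not overlap for DSP, and its log2FC of -0.29 (SE 0.081) had an adjusted p of 0.329 from limma. CRB3, an apical polarity protein, had the highest log2FC of those of at least 1 FPKM, at 0.15 (SE 0.15). Among 7 cross-linkers and partners of keratin filaments, all tested, none passed. PLEC (plectin) had 30.1 to 35.3 FPKM and FAM83H had 46.1 to 49.4 FPKM. EPPK1 (epiplakin), a plakin that binds keratins, had the lowest log2FC, at -0.36 (SE 0.17), and DNAJB6 had the highest, at 0.011.

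The factors that hold the epithelial state were mostly present, and none of the 11 tested passed. ESRP1, which splices epithelial isoforms, had 56.0 and 58.0 FPKM with PBS and 50.8 and 53.6 FPKM with fluoxetine. ELF3 had 30.2 to 34.4 FPKM, and GRHL2, an activator of CDH1, had 6.55 to 7.07 FPKM. KLF5 had the lowest log2FC, at -0.33 (SE 0.13, adjusted p = 0.538 from limma), and EHF had the highest, at 0.10. GRHL2 was chosen for mention after its values were seen. TP63, the basal cell factor, had 0 to 8 reads.

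Of the 12 EMT transcription factors in the table, 6 had a mean of at least 1 FPKM. SNAI1, a repressor of CDH1, had 44.1 and 50.8 FPKM with PBS and 45.3 and 44.1 FPKM with fluoxetine, and the groups overlapped. SNAI3 had 18.4 to 20.4 FPKM. TCF3 and TCF4, E proteins that bind the E-box, had 45.8 to 49.4 FPKM and 23.3 to 27.0 FPKM. TCF4 had the larger difference, a log2FC of -0.14 (SE 0.077). PRRX1 had 12.2 to 15.1 FPKM. The ZEB and TWIST families were low, with 0.266 to 0.401 FPKM for ZEB2, 0.177 to 0.504 FPKM for TWIST1, 2 to 6 reads for ZEB1 and 0 to 5 reads for TWIST2. SNAI2 had 0.198 to 0.436 FPKM, and FOXC2 had at most 1 read in a library. Of the 12 factors, 9 were tested, 8 lower and 1 higher by sign, with a median log2FC of -0.14, and none had an adjusted p under 0.05. Among all genes tested, about 56.5% were lower by sign and the median log2FC was -0.021.

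Of the 19 mesenchymal genes, 9 were tested and 1 had an adjusted p under 0.05. This was FN1 (fibronectin), an extracellular matrix protein, which fell in the same direction as VIM. FN1 had 2.46 and 3.30 FPKM with PBS and 1.33 and 1.19 FPKM with fluoxetine, a log2FC of -1.12 (SE 0.17, adjusted p = 0.0181 from limma). Its adjusted p rose above 0.05 with each library left out (0.103 to 0.656), without the filter on low values (0.538), without the trend (0.328), with quantile normalization (0.0783) and with the length trend removed (0.0863). Of the 9, 4 were higher and 5 lower by sign, with a median log2FC of -0.028, where about 56.5% of all genes tested were lower. ACTA2 (smooth muscle actin) had 5.69 and 4.52 FPKM with PBS and 4.39 and 5.86 FPKM with fluoxetine. COL5A2 had 15.8 to 17.4 FPKM, and MMP2 had the highest log2FC of those of at least 1 FPKM, at 0.23 (SE 0.17). Below 1 FPKM, the log2FC was -1.19 for MMP14 (SE 0.32), -0.85 for SPARC (SE 0.33) and 0.49 for TAGLN (SE 0.25). None of these 3 passed the test.

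The summed FPKM of 6 fibroblast markers was 2.87 and 2.97 with PBS and 1.93 and 2.82 with fluoxetine, most of it COL1A1 at 2.53 and 2.75 against 1.83 and 2.66 FPKM. DCN had 0.212 and 0.127 FPKM with PBS and 0.0736 and 0.118 FPKM with fluoxetine, and PDGFRB had at most 1 read in a library. Of these 6 markers 2 were tested and none passed. The summed FPKM of 6 immune and endothelial markers was 2.97 and 4.21 with PBS and 3.73 and 2.93 with fluoxetine, most of it CD68, while VWF had 0.0792 to 0.147 FPKM. PTPRC, the leukocyte marker CD45, was higher in both fluoxetine libraries (7 and 3 reads) than in the PBS libraries (1 in each). CDH5, a cadherin of endothelium, was lower in both fluoxetine libraries (2 and 3 reads) than in the PBS libraries (17 and 8), and CD3E was at 0 in 3 libraries. The part of such cells in the difference in VIM was not tested. In bulk samples, fewer cells that carry VIM and less VIM RNA per cell cannot be told apart.

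Among 10 genes related to EPCAM, its cleavage and its signalling, 9 were tested and none passed. ST14 (matriptase), a protease that cleaves EPCAM, had 242 to 255 FPKM, and its inhibitor SPINT2 had 144 and 136 FPKM with PBS and 154 and 151 FPKM with fluoxetine. PSEN2, a γ-secretase subunit, had the highest log2FC, at 0.20 (SE 0.090). LEF1, a partner of β-catenin in the nucleus, had 1.18 and 1.34 FPKM with PBS and 0.765 and 0.859 FPKM with fluoxetine, a log2FC of -0.58 (SE 0.19, adjusted p = 0.478 from limma).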

How the data were processed

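RNA of LASCPC-01 cells, 2 samples with PBS and 2 with fluoxetine, was sequenced as paired-end reads. The authors deposited 1 FPKM value per gene and library. The submitters' processing notes name fastp, HISAT2, HTSeq and GRCh38, and their versions and the annotation are not given in the sources used here. All 4 columns of the table were mapped to samples by the treatment labels.

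Genes with a mean of at least 0.1 FPKM (12663) were compared on log2(FPKM + 0.1) by limma 3.58.1, run in R 4.3.3 as lmFit followed by trended eBayes, and p-values were adjusted by Benjamini-Hochberg. Differences of low genes come out too small on that scale. Tested on simulated reads, whose spread was set and not measured, it called more unchanged genes than the threshold allows when other genes were changed. The adjusted p-values given here, those of VIM and FN1 included, may therefore be too small. Read numbers were solved from the FPKM as the smallest gene length of whole bases that gave whole reads in all 4 libraries, for 16079 of the 16080 genes above 0. The depth of PBS replicate 1 was the value on which the GENCODE 29 exon lengths of 42 genes converged. The depths of the other libraries were derived from it through genes taken to have equal reads. True read numbers can be multiples of these, and they cover counting error only. Tables and figures were made in Python 3.11.15 with pandas 2.3.3, numpy 2.4.6 and matplotlib 3.10.9.

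The members and the other gene lists were chosen with earlier results of these data known. Named genes were all members and, from each list, the genes with an adjusted p under 0.05, the 2 of highest mean and those with the largest difference in each direction at a mean of at least 1 FPKM. EMT factors and catenins of at least 1 FPKM were named as well. Some genes that this rule names are not reported here. Other genes were named after their values were seen. Keratin pseudogenes, listed under 130 symbols, gave 0 genes of the table. The 14 alternatives of the plan and 3 added after seeing the data (voom on the recovered reads, and removal of the gene length trend by lowess with a span of 0.3, without and with the replicate block) are given in the closing section.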

Additional observations from a re-analysis of the deposited data

How the results depend on the processing

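VIM was lower in fluoxetine under all 17 alternatives, with log2 fold changes between -0.90 and -0.66. Its adjusted p stayed under 0.05 under 10 of them and was 0.426 without the filter on low values (log2 fold change -0.80), 0.0783 with quantile normalization (-0.74), 0.277 with eBayes without the trend (-0.80) and between 0.0513 and 0.573 with 1 library left out. The number of members with an adjusted p under 0.05, which was 1, was 0 under these same alternatives. Over all genes tested, 30 had one (27 lower and 3 higher), against 0 without the filter, 0 without the trend, 16 with quantile normalization and 51 with voom on the recovered reads, an alternative chosen after seeing the data. With limma, 1069 genes had an unadjusted p under 0.05 without the filter and 933 without the trend. With 1 library left out the number was between 2 and 12, and that of members was between 0 and 0. The cause of these changes was not tested, except that a library left out leaves fewer samples.

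With the replicate number as a replicate block, 64 genes were called and VIM had an adjusted p of 0.00303 from limma. The deviation from the group mean had a correlation of 0.0351 between libraries of the same number (0.058 over genes with a mean of at least 1 FPKM and 0.101 at 10 FPKM). The labels tie the numbers to no shared culture or day, and only 2 pairs exist, so the numbers were not taken as a pairing. No other member was called with the block. FN1 was lower under the same 17 alternatives, tried for it after seeing the data, at -1.32 to -0.77, and kept an adjusted p under 0.05 in 8.

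The sign turned for KRT10 with TPM rescaling (-0.0035), for KRT19 with TPM rescaling (-0.0063), without fluoxetine replicate 1 (-0.22, within a range of -0.22 to 0.30 over the libraries left out) and with the length trend removed (-0.018, and -0.018 also with the replicate block). It turned for CDH2 with TPM rescaling (-0.038), quantile normalization (-0.016), without PBS replicate 1 (-0.0032) and without fluoxetine replicate 2 (-0.0031), within a range of -0.0032 to 0.023 over the libraries left out. None of these values passed the test. KRT7 could not be tested at a minimum mean of 1 FPKM, and depth limits KRT5, KRT7 and KRT19, at 0 to 65 reads a library.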
